A study of Homo sapiens with 4 samples.

Results

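The S100 proteins are small calcium-binding proteins, and 10 of their genes were followed here: S100A2, S100A4, S100A6, S100A8, S100A9, S100A10, S100A11, S100A13, S100A14 and S100P. The members are all non-control probes that carry one of these gene names on the array, 12 of 41000 probes. The family was selected on the log2 ratios of the clones to the control, with S100A14 known to be among the strongest changes, so these ratios are given as a description without a test. The difference between the clones is formed from the same ratios. Its p-values for the members are thus not independent of the choice of the family. RNA of 2 stable clones of the colon cancer cell line HCT116, clone #3-1 and clone #4-7, each carrying an N-BLR shRNA, was hybridised on 4 Agilent 2-colour arrays, 2 per clone, and each array also received RNA of HCT116 cells with the empty vector. N-BLR is a long non-coding RNA, and the arrays addressed how its knockdown changes protein-coding genes. Each clone is 1 line, the control is 1 sample of RNA common to the arrays, and all arrays lie on 1 slide. The labels speak of lentivirus and the study's methods of a transfected shRNA vector. Whether the 2 arrays of a clone hold separate cultures is not clear, since the labels name them biological replicates and the methods duplicates, so p-values measure the spread between these arrays, which may be technical.

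S100 proteins carry paired EF-hand calcium-binding loops and mostly act as dimers. On binding calcium most of them change shape and expose a surface that grips partner proteins, among them annexins and myosin. Most of their genes lie side by side on the long arm of chromosome 1, in the epidermal differentiation complex, while S100P lies on chromosome 4. In epithelial tumours several members have been studied for their part in adhesion, motility and invasion.

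By the labels every array has the clone in Cy5 and the empty vector RNA in Cy3, dyes were never exchanged, and the methods do not say which dye was used for which RNA. The single channels went against these labels. Empty vector RNA shared by the 4 arrays would give similar levels on all of them, but the channel with similar levels was Cy5. Among 26910 probes well above background in both channels on all arrays, 49 differed at least 2-fold between the arrays of the clones in Cy5 and 966 did in Cy3. That difference is between the means of the 2 arrays of each clone. Its SD over the probes was 0.150 (log2) in Cy5 and 0.455 in Cy3. Duplicate arrays, taken singly, differed with an SD of 0.177 and 0.163 in Cy5 and of 0.163 and 0.140 in Cy3. At least 2-fold between the duplicates of clones #3-1 and #4-7 differed 81 and 34 probes in Cy5, and 56 and 14 in Cy3. Means of 2 arrays vary less than single arrays, so the values between clones and those between duplicates are not on 1 scale. These levels were scaled by quantiles within each channel, and scaling by the median gave 48 and 968 probes between the clones. With the median the SD between the clones' means was 0.257 in Cy5 and 0.455 in Cy3. The single Cy5 duplicates of clone #4-7 then differed with an SD of 0.444, so the contrast of the channels by SD depends on the scaling. The direction of the ratios is therefore not settled. Below, log2 ratios are Cy5 over Cy3, a clone's arrays are named by their label, and no rise or fall in a clone is stated. Reading Cy3 as the clone turns the sign of every ratio and of every difference between the clones, and leaves sizes and tests as they are. Read as labelled, E-cadherin (log2 ratio -2.60 ± 0.01 and -1.35 ± 0.03, SD, n = 2 arrays each, in clones #3-1 and #4-7) is lower in the clones, whereas the study's text describes it as higher. The study reports the higher E-cadherin in both clones from these arrays, and also by qRT-PCR and immunofluorescence. It also shows a Western blot of E-cadherin in these clones.

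The largest ratio of the family was that of S100A14 in clone #3-1 and that of S100A4 in clone #4-7. In clone #3-1 the ratio of S100P (1.82-fold lower in Cy5) was also larger than that of S100A4. S100A14, a member found in epithelia, was 12.7-fold lower in Cy5 than in Cy3 in clone #3-1 and 3.88-fold lower in clone #4-7. S100A4, known for its binding to non-muscle myosin and its link to metastasis, was 1.56-fold lower in Cy5 in clone #3-1 and 12.5-fold lower in clone #4-7. These are bulk RNA samples, in which fewer cells of a type and less RNA per cell cannot be told apart. The bases before the start of both genes are shown because the 2 genes carry the family's largest ratios. In capitals are matches on either strand to CAGGTG, the E-box to which ZEB1, the repressor of E-cadherin, is known to bind, and to the TATA box TATAAA. Each line runs 5′ to 3′ on the gene's strand, ends 1 base before the start, and comes from RefSeq on GRCh38.p14, at chr1:153616326-153616575 for S100A14 and chr1:153545807-153546056 for S100A4, both on the minus strand.

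S100A14: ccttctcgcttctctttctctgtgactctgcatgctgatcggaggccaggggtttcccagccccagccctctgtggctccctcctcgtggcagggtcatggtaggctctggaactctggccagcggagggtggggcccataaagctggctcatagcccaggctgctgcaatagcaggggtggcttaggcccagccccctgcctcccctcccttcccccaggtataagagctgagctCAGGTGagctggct

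S100A4: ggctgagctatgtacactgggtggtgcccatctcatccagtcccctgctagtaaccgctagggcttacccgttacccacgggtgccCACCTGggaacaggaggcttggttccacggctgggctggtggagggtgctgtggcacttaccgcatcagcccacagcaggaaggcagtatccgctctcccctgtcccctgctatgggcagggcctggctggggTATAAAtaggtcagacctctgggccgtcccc

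CAGGTG or its reverse complement CACCTG begins 14 bases before the start in S100A14 and 164 bases before it in S100A4, where TATAAA begins 31 bases before the start. The E-box was in a window of 250 bases for 6 of 10 members (S100A2, S100A4, S100A8, S100A9, S100A14 and S100P), with 1 site in each, and for 20.6% of all 27305 genes. TATAAA or its reverse complement was there for 5 of the 10, also with 1 site each, and for 13% of all genes. The 3 windows of S100A8 overlap and share their sites, which were counted once. Of CG dinucleotides the members' 15 windows, one for each listed start, held a median of 4, against 11 in all windows. S100A6 and S100A10 had 24 CG each, S100A11 had 15, S100A4 had 7, and S100A14 and S100P had 4 each. A match is a description of these letters and not a site of binding.

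S100A14 was read by the probe A_23_P124619 (chromosome 1, 150400079 to 150400138, build hg17 of the files, which name no exon). Its log2 ratios were -3.71 and -3.63 on the arrays of clone #3-1 and -2.01 and -1.90 on those of clone #4-7. The means were -3.67 ± 0.06 and -1.95 ± 0.08 (SD, n = 2 arrays each). By this ratio the probe had rank 2 from the lowest of all probes in clone #3-1 and rank 68 in clone #4-7. In Cy3 its level, scaled by quantiles, was 13.05 and 12.94 (log2) on the arrays of clone #3-1, and 11.09 and 11.08 on those of clone #4-7. In Cy5 it was 11.04 and 11.01, and then 10.71 and 10.79. Cy3 thus differed between the clones' arrays by 1.91 and Cy5 by 0.28, both higher with clone #3-1 (1.88 and 0.52 where each channel was scaled by the median). The ratio differed by -1.71 (clone #3-1 minus clone #4-7), given without a test because the gene was chosen for its change.

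S100A4 was read by A_23_P94800 (chromosome 1, 150329271 to 150329330, hg17). Its log2 ratios were -0.63 and -0.65 with clone #3-1 and -3.63 and -3.65 with clone #4-7. The means were -0.64 ± 0.01 and -3.64 ± 0.01 (SD, n = 2 arrays each). By this ratio the probe was at rank 1554 from the lowest in clone #3-1 and at rank 8 in clone #4-7. The Cy3 level was 11.23 and 11.24 with clone #3-1 and 14.29 and 14.33 with clone #4-7. The Cy5 level lay between 12.28 and 12.43 on all 4 arrays. Cy3 held 3.07 less (log2) on the arrays of clone #3-1 than on those of clone #4-7, and Cy5 0.13 less. Scaled by the median, the Cy5 difference turned its sign, with 0.16 more on the arrays of clone #3-1, while that of Cy3 was -3.11. The difference of the ratios between the clones was 3.00 (SE 0.039; limma's adjusted p = 1.1e-05), and it passed in all 15 alternative settings with values between 2.99 and 3.07. It is formed from the ratios on which the family was selected, so its p is no independent test.

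**Figure D1:**
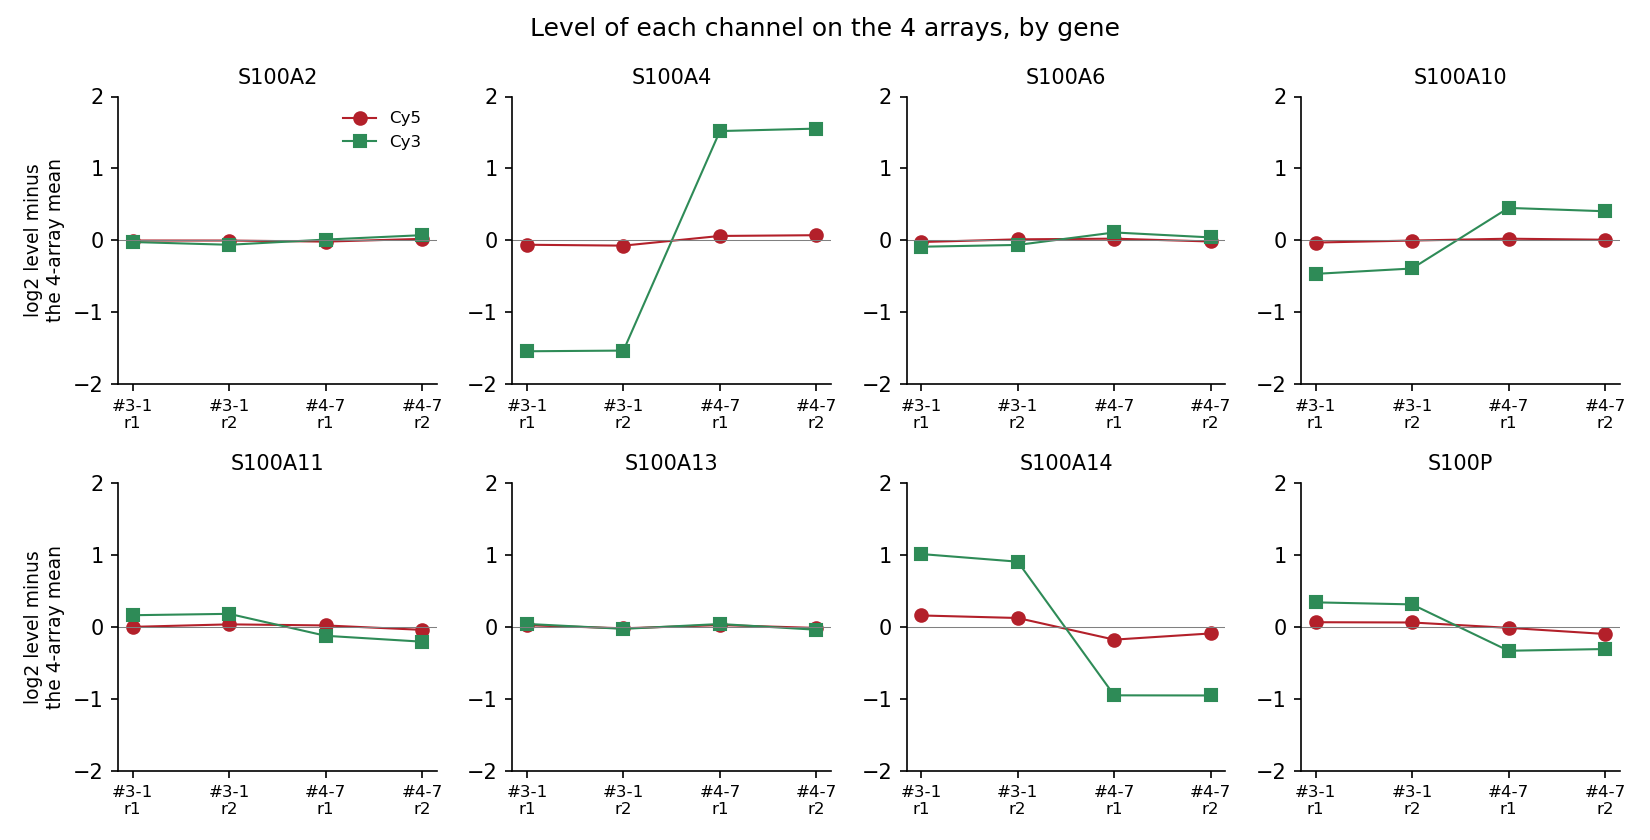
Level of Cy5 (red circles) and of Cy3 (green squares) on the 4 arrays for the 8 members well above background, in log2 relative to the mean of the 4 arrays, after quantile scaling within each channel (S100A11 by its brighter probe). Cy3 changed between the arrays of the clones by 3.07 for S100A4 and 1.91 for S100A14, while Cy5 changed by 0.13 and 0.28 (scaled by the median, Cy5 changed by 0.16 and 0.52, with the sign for S100A4 turned).

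S100A10 and S100A11 are known as partners of annexins, S100A10 of annexin A2 and S100A11 of annexin A1. The S100A10 probe A_23_P137984 (chromosome 1, 148768493 to 148768552, hg17) had opposite signs in the clones. Its log2 ratios were 0.62 and 0.57 with clone #3-1 and -0.28 and -0.24 with clone #4-7. The means were 0.60 ± 0.03 and -0.26 ± 0.03 (SD, n = 2 arrays each), or 1.51-fold higher and 1.19-fold lower in Cy5. The difference was 0.85 (95% interval 0.75 to 0.96; limma's adjusted p = 1.7e-04), and it passed in all 15 alternative settings. In Cy3 the level was 0.86 lower with clone #3-1 than with clone #4-7, and in Cy5 it was 0.033 lower. Scaled by the median, the Cy3 level was lower by 0.88 and the Cy5 level was higher by 0.28, so the direction in Cy5 depends on the scaling. A second probe with this gene name, A_32_P366909, lies 35.7 kb away on the other strand and was not well above background in either channel on any array, so it gives no fold.

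The S100A11 probes A_23_P145863 (chromosome 1, 148818233 to 148818292, hg17) and A_23_P126593, adjacent to each other, gave similar values. The first had log2 ratios of 0.11 and 0.12 with clone #3-1 and of 0.42 and 0.45 with clone #4-7. The other had 0.10 and 0.024, and then 0.37 and 0.40. Both were higher in Cy5 on all arrays, with the higher ratios on those of clone #4-7. The difference between the clones was -0.32 in both (95% intervals -0.42 to -0.22 and -0.44 to -0.20; limma's adjusted p = 0.0024 and 0.0043). Small as it is, it missed the threshold of an unadjusted p of 0.001 in 10 and 12 of the 15 alternative settings, among them the removal of any 1 of the 4 arrays.

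S100P and S100A6 were both lower in Cy5. S100P, which is known to bind ezrin and the receptor AGER, was read by A_23_P58266 (chromosome 4, 6816891 to 6816950, hg17). Its log2 ratios were -0.88 and -0.85 with clone #3-1 and -0.24 and -0.34 with clone #4-7. The means of -0.86 ± 0.02 and -0.29 ± 0.07 (SD, n = 2 arrays each) differed by -0.58 (95% interval -0.71 to -0.45; limma's adjusted p = 8.1e-04). The call was lost in 4 of the 15 alternative settings, while the size lay between -0.67 and -0.52 in all. Its Cy3 level was 0.65 higher with clone #3-1 and its Cy5 level 0.12 higher (0.64 and 0.20 where scaled by the median).

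S100A6, or calcyclin, binds the calcyclin-binding protein CACYBP. Its probe A_23_P201711 lies on chromosome 1 between 150320328 and 150320758 (hg17). The log2 ratios were -0.61 and -0.60 with clone #3-1 and -0.79 and -0.75 with clone #4-7, with means of -0.60 ± 0.004 and -0.77 ± 0.02 (SD, n = 2 arrays each). The difference of 0.17 (95% interval 0.065 to 0.27; limma's adjusted p = 0.024) did not pass the threshold.

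S100A2 and S100A13 had small ratios. S100A2, a member known from squamous epithelia, was read by A_23_P201706 (chromosome 1, 150346939 to 150346998, hg17), at -0.24 and -0.20 with clone #3-1 and at -0.28 and -0.31 with clone #4-7. The groups lay next to each other, and the difference of 0.082 had a 95% interval of -0.023 to 0.19 (limma's adjusted p = 0.18). S100A13, which takes part in the release of FGF1 by a route without a signal peptide, was read by A_23_P372874 (chromosome 1, 150404358 to 150404417, hg17). Its log2 ratios lay between 0.017 and 0.060 on all arrays, and those of the clones overlapped. The difference of -0.0061 had a 95% interval of -0.11 to 0.10 (limma's adjusted p = 0.93), so a difference of that size was not detectable with 2 arrays per clone.

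S100A8 and S100A9 form calprotectin, an abundant protein of neutrophils and monocytes. Their probes A_23_P434809 (chromosome 1, 150175621 to 150175680, hg17) and A_23_P23048 (chromosome 1, 150143947 to 150146216, hg17) were not well above background in Cy5 or Cy3 on any array, and no fold is given.

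Well above background in both channels on all arrays were thus 8 of the 10 members. That is no trait of the family, since 12572 of all 16339 genes were well above background in at least 1 channel. In both channels 26910 of all 41000 probes were. With a gene represented by its brightest probe, 6 of 10 members were past the threshold in clone #3-1 (40.0% of all 16339 genes were) and 7 of 10 in clone #4-7 (36.3% of all genes). These counts use the contrast from which the family was chosen. For the difference between the clones the members past the threshold besides S100A14 were S100A4, S100A10, S100A11 and S100P, where 27.7% of all genes passed. As it is formed from the same ratios, this count is not independent of the choice of the family either. Between genes these ratios say nothing of levels, since brightness depends on the probe. Among the 25 probes with a name beginning in S100, each 60 bases long, the longest run shared by probes of different genes was 10 bases.

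**Figure D2:**
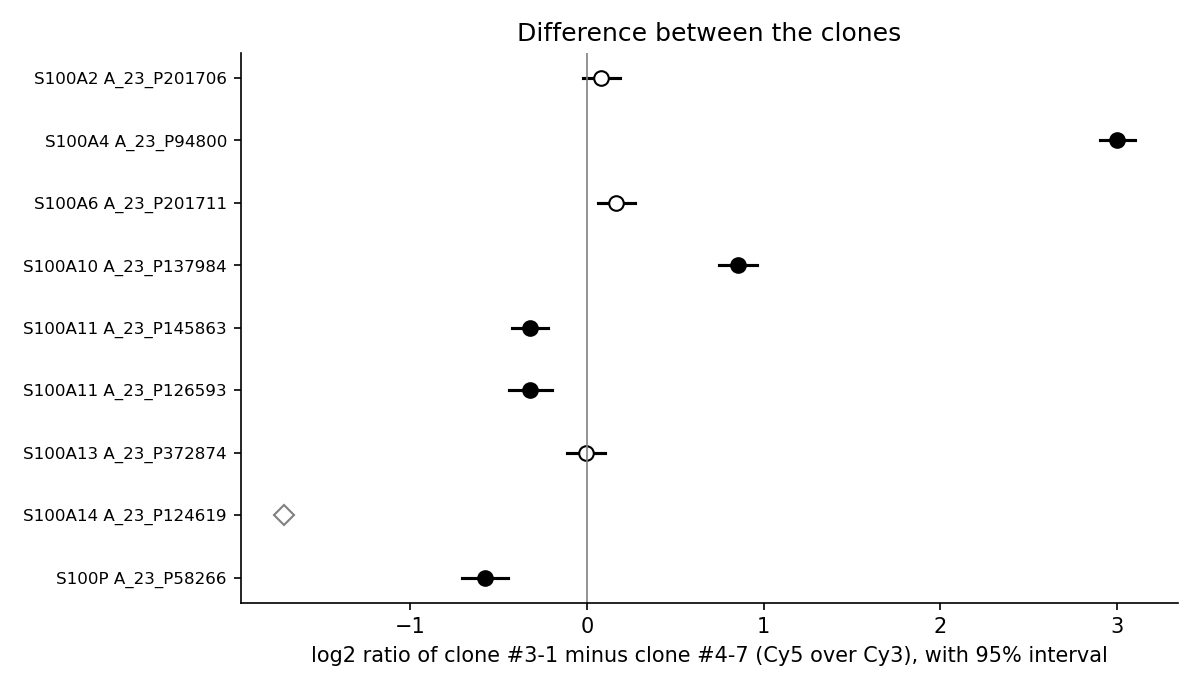
Log2 ratio of clone #3-1 minus that of clone #4-7 (horizontal axis, Cy5 over Cy3) for the 9 probes well above background, with 95% intervals as lines. Filled points passed limma's p under 0.001, open circles did not, and the diamond is S100A14, shown without a test. S100A4 stands at 3.00, S100A10 at 0.85 and S100A13 at -0.0061.

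Along chromosome 1 the large ratios were not shared by neighbouring genes. The S100A4 probe lies 3.61 kb from that of S100A5 and 3.80 kb from that of S100A3. In clone #4-7, where S100A4 was at -3.64, S100A5 was at -0.31 ± 0.03 and S100A3 at -0.34 ± 0.04 (SD, n = 2 arrays each; limma's adjusted p = 6.3e-04 and 6.8e-04). S100A14 lies 7.33 kb from S100A16 and 4.28 kb from S100A13. In clone #3-1, where S100A14 was at -3.67, S100A16 was at -0.18 ± 0.01 (SD, n = 2 arrays; limma's adjusted p = 0.0033), and S100A13 was at 0.034. S100A16 had the opposite sign in clone #4-7, at 0.26 ± 0.01 (SD, n = 2 arrays; limma's adjusted p = 0.0010), and the clones differed by -0.44 (limma's adjusted p = 8.1e-04).

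**Figure D3:**
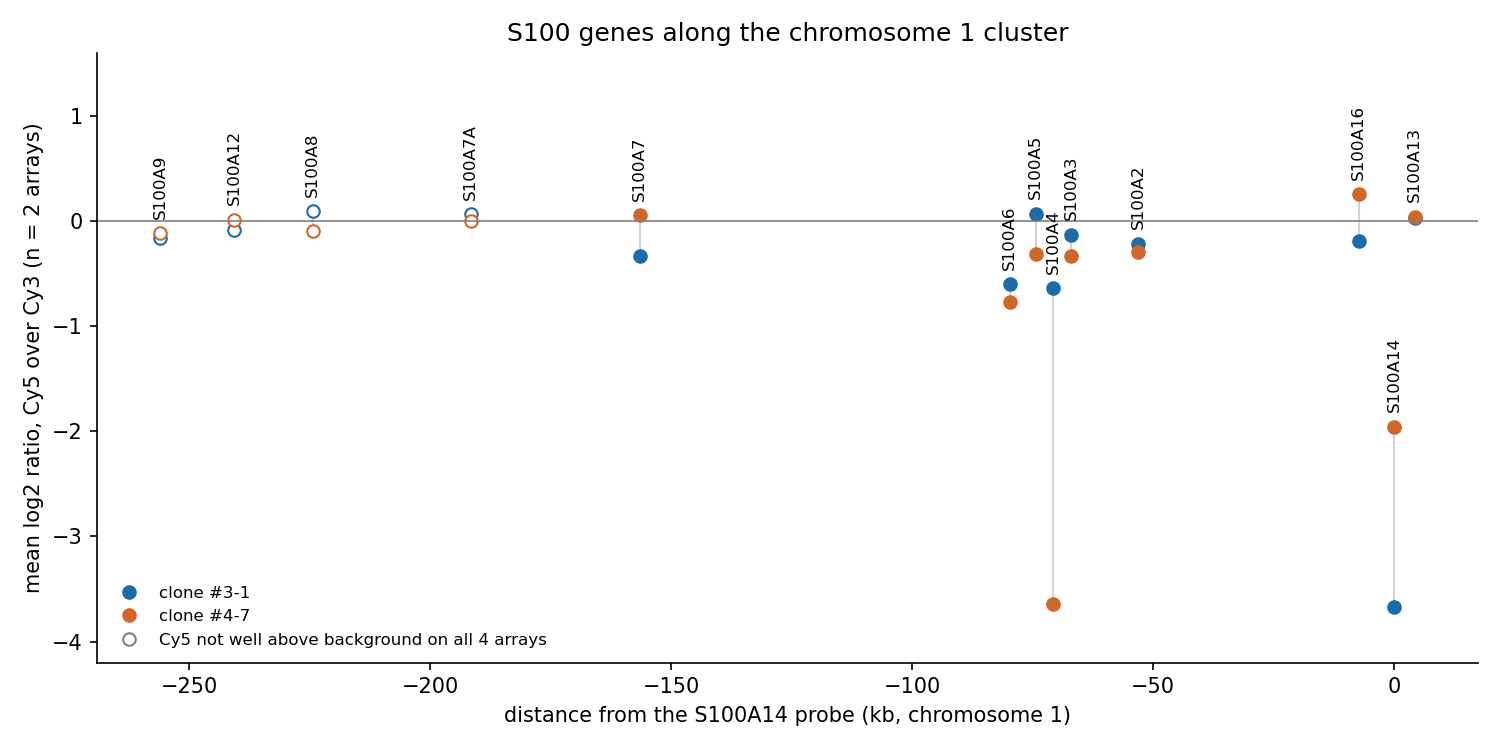
Mean log2 ratio (Cy5 over Cy3, n = 2 arrays) of the S100 genes from S100A9 to S100A13 along chromosome 1 against the distance of their probes from the S100A14 probe in kb, coloured by clone, with a grey line joining the clones. S100A1, S100A10 and S100A11 lie outside this stretch and are not shown. Open points had Cy5 not well above background on all 4 arrays. S100A4 in clone #4-7 and S100A14 in both clones stand far below the genes beside them.

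Of 10 other S100 genes on the array, 4 were well above background on all arrays in at least 1 channel, against 12572 of all 16339 genes. These 4 were S100A3, S100A5, S100A7 and S100A16. S100A1 was well above background only in Cy3 and only on 2 arrays, and S100A7A, S100A12, S100B, S100G and S100Z on none. In clone #3-1, 1 of the 10 passed the threshold, and in clone #4-7, 4 did (40.0% and 36.3% of all genes). In clone #3-1 it was S100A7, and in clone #4-7 they were S100A3, S100A5, S100A16 and the dim S100A1. The difference between the clones passed for 3 of the 10 (27.7% of all genes), for S100A16, for S100A5 (0.39; limma's adjusted p = 0.0015) and for S100A7 (-0.38; limma's adjusted p = 0.0021). S100A7 was dim, with Cy3 well above background on 2 arrays. The median log2 ratio of the 10 genes was -0.11 in clone #3-1 and -0.018 in clone #4-7, and that of all genes was 0.015 and 0.017.

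Between the outermost member probes on chromosome 1 (148768493 to 150404417, hg17, a stretch of 1636 kb) lie 57 probes of other genes. Of them, 27 were well above background on all arrays in at least 1 channel. Over the whole array, 26910 of 41000 probes were so in both channels. In clone #3-1, 7 of the 57 passed the threshold, in clone #4-7 8 did, and in the difference 4 did (in all probes, 32.6%, 31.0% and 22.5%). The 3 genes measured of 7 that join an S100 domain to a longer repeat protein of the skin, FLG, RPTN and CRNN, were not well above background. Of 10 further genes of the epidermal differentiation complex 3 were, against 12572 of all 16339 genes. In clone #4-7, 1 of the 10 passed (36.3% of all genes). It was SPRR2D, which was dim, with Cy3 well above background on 1 array. A probe with no gene name, A_32_P121234, lies 3.21 kb from the S100A10 probe. It was at 0.64 ± 0.02 in clone #3-1 and -0.22 ± 0.01 in clone #4-7 (SD, n = 2 arrays each), beside 0.60 and -0.26 for S100A10, and the clones differed (limma's adjusted p = 1.3e-04).

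The known partners of S100 proteins were read as lists of 30 genes in all, each by its brightest probe. In clone #3-1 13 of the 30 passed the threshold, 6 higher and 7 lower in Cy5 (21.3% and 18.7% of all genes). In clone #4-7 12 passed, 7 higher and 5 lower in Cy5 (20.3% and 15.9% of all genes). The difference between the clones passed for 12, against 27.7% of all genes. The median log2 ratio of the lists was 0.0028 in clone #3-1 and 0.017 in clone #4-7.

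Of 8 receptors and extracellular partners, 5 differed between the clones (27.7% of all genes did). AGER, the receptor RAGE, was at -0.43 ± 0.05 in clone #3-1 and 0.32 ± 0.02 in clone #4-7 (SD, n = 2 arrays each). The urokinase gene PLAU was at -1.16 ± 0.01 and 0.017 ± 0.020, and the tissue plasminogen activator gene PLAT, whose product acts on plasminogen held by S100A10, at 0.15 ± 0.01 and -0.72 ± 0.01. BSG, a receptor of S100A9, was at 0.43 ± 0.02 and -0.091 ± 0.020 by its brighter probe, while its second probe was at 0.042 and 0.0085. For these 4 genes the largest limma adjusted p of the difference was 5.2e-04. The fifth, the urokinase receptor PLAUR, was at -0.14 ± 0.05 and 0.28 ± 0.04 (SD, n = 2 arrays each; limma's adjusted p of the difference = 0.0015). TLR4, CD36 and PLG, further receptors and ligands, did not pass in either clone.

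Of the 5 annexins, ANXA5 was higher in Cy5 in both clones, at 0.66 ± 0.04 and 0.31 ± 0.01 (SD, n = 2 arrays each). ANXA1, the partner of S100A11, was at 0.38 ± 0.03 in clone #3-1 and 0.033 ± 0.036 in clone #4-7, and both annexins differed between the clones (limma's adjusted p = 0.0024 and 0.0027). ANXA2, the partner of S100A10, did not pass in either clone by any of its 3 probes, and the brightest was at 0.16 and 0.063. ANXA11 did not pass in the difference by its brighter probe, but its other probe, A_24_P107142, differed between the clones, at 0.066 and -0.33 (limma's adjusted p = 0.0025).

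Of 4 cytoskeletal and scaffold genes, ezrin, the S100P partner of the cell cortex, passed in the difference. Its brighter probe was at -0.77 ± 0.07 in clone #3-1 and 0.80 ± 0.02 in clone #4-7 (SD, n = 2 arrays each), and its second probe at -1.16 and 0.39. The difference of -1.57 had limma's adjusted p = 6.4e-05. AHNAK, a large scaffold protein that S100A10 and ANXA2 bind, did not pass in the difference by its brightest probe, at -0.34 and -0.028. Its other 4 probes passed in the difference, and they disagreed: A_23_P21363 was at -0.59 in clone #3-1 and 0.63 in clone #4-7, and the others lay below 0 in both clones. MYH9, the myosin that S100A4 binds, was at 0.21 and 0.17 in its brighter probe, and at 0.16 and 0.25 in the other.

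Of 5 genes of the ubiquitin and chaperone partners, CACYBP and SUGT1 were higher in Cy5 in both clones. CACYBP, the calcyclin-binding protein, was at 0.93 ± 0.01 and 0.65 ± 0.01, and SUGT1, a co-chaperone, at 0.65 ± 0.02 and 0.77 ± 0.06 (SD, n = 2 arrays each). The ubiquitin ligase STUB1 was at -0.17 ± 0.02 and -0.94 ± 0.07 and differed between the clones (limma's adjusted p = 3.3e-04). One of the 4 CACYBP probes, A_24_P45379, was at -0.0056 in clone #4-7, unlike the others.

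Of 8 genes of the secretion complex and of channels, SYT1, which joins S100A13 in the release of FGF1, was lower in Cy5 in both clones, at -0.68 ± 0.01 and -2.01 ± 0.03 (SD, n = 2 arrays each). ASIC1, a channel that S100A10 brings to the membrane, was at -0.99 ± 0.01 and -0.23 ± 0.02, and both genes differed between the clones (limma's adjusted p = 5.3e-05 and 1.8e-04). KCNK3 was at 0.54 ± 0.02 and 0.45 ± 0.10 by its brightest probe, and its other probes were at 0.17 and 0.16 and at -0.070 and -0.14. FGF1 and IL1A were not well above background.

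The 5 genes whose 4 log2 ratios lay nearest to those of S100A14, by Euclidean distance over the 4 arrays, were SPATA22, LOC401131, MAL2, TMEM125 and TMC4, at distances between 0.73 and 1.11. Of these, SPATA22 and LOC401131 were not well above background in Cy5. MAL2, a membrane protein of epithelial transport, was at -4.18 and -2.28 in clones #3-1 and #4-7. The member with the highest mean ratio was S100A11, and the genes nearest to it were LOC644053, TPMT, EVL, MFF and COX7C, at distances between 0.029 and 0.043. Such small ratios are shared by many genes.

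The label of a colon epithelial line was checked against markers. EPCAM, KRT8, KRT18, KRT19, CDX2 and LGALS4 were well above background, 6 of 8 epithelial markers, and VIL1 and CEACAM5 were not. Of 7 myeloid markers, 3 were (CD14, ITGAM and CSF1R), while PTPRC, LYZ, FCGR3A and MPO were not. Of 7 fibroblast and endothelial markers, 2 were, COL1A1 and VWF. Over all 16339 genes, 12572 were well above background on all arrays in at least 1 channel by their brightest probe. The 6 of 8 epithelial markers are near that share, so this count alone does not show the line to be epithelial. Of the 8 epithelial markers 3 passed in clone #3-1 and 4 in clone #4-7 (40.0% and 36.3% of all genes), and 2 passed in the difference (27.7% of all genes). EPCAM was at -1.04 ± 0.004 and -0.44 ± 0.02, KRT8 at -0.69 ± 0.03 and -0.90 ± 0.07, and KRT19 at -0.80 ± 0.11 and 0.36 ± 0.07 (SD, n = 2 arrays each). KRT18 passed only in clone #4-7 by its brightest probe, at -0.10 and -0.37, but its probes disagreed. A_23_P99320 (-0.29 and -0.46) and A_24_P42136 (-0.26 and -0.44) passed in both clones, and the dim A_24_P924957 (0.010 and -0.10) in neither. CDX2 (-0.063 and -0.27) and LGALS4 (-0.010 and 0.021) did not pass in a clone. Of the 7 myeloid markers 1 and 2 passed, and of the 7 fibroblast and endothelial markers 2 and 2. Of the other lists, CSF1R was at -2.30 ± 0.08 and -0.38 ± 0.12, COL1A1 at -0.59 ± 0.004 and -1.13 ± 0.01, and VWF at -0.35 ± 0.02 and -0.44 ± 0.03. Their part in the S100 ratios was not tested.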

How the data were processed

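The authors deposited, per the file headers, the Cy5 and Cy3 intensity and local background of each spot as read by Agilent Feature Extraction (version 8.5.1.1 in the submitters' processing notes, 9.5.3.1 in the headers), and a table of log10 ratios, which the authors took from Feature Extraction. Flags mark spots that are saturated, outliers or well above background. Each array holds 43376 probe spots and 1639 controls, and 87 to 125 outlier spots per array were left out. Of the probe spots, 71.5% to 72.6% were well above background in Cy5 and 68.5% to 71.8% in Cy3.

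With limma 3.58.1 in R 4.3.3, the background was corrected by normexp (offset 50), the log2 ratios were normalized by loess within and quantiles between arrays, and spots of a probe were averaged. A model with a term per clone was fitted to all 41000 probes over the 4 arrays, with the methods' threshold, read as an unadjusted p under 0.001. Adjusted p-values are Benjamini-Hochberg over all probes. Tests against 0 leave out the spread of the 1 control sample. The fit was tested on simulated data. A current symbol was matched to 23434 probes.

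All probes of the members are named. Of each list, up to 4 genes that passed in both clones or differed between them are named, taking the largest ratios, and further genes were named, with their values seen, to account for a list or where probes disagree. One gene of a partner list is not reported here and was left out of its counts. The members and lists were chosen with earlier results of these data known. Single-channel levels were scaled by quantiles within a channel. The alternatives were 17 and are described with the limits. Too few arrays limit the precision. The study's direction could not be checked on N-BLR, which was not analysed here.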

Additional observations from a re-analysis of the deposited data

Results flagged for a closer look

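The following results differed between the clones by limma's p under 0.001 for the difference itself, given as the log2 ratio (Cy5 over Cy3) of clone #3-1 minus that of clone #4-7, with signs that turn if Cy3 holds the clone. Among the members, whose choice used the ratios that form the difference, these were S100A4 (3.00), S100A10 (0.85), both probes of S100A11 (-0.32 and -0.32) and S100P (-0.58). Among the other S100 genes they were S100A16 (-0.44), S100A5 (0.39) and S100A7 (-0.38).

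Among the receptors and extracellular partners, PLAU (-1.18), PLAT (0.87), AGER (-0.75), BSG (0.53) and PLAUR (-0.43) differed, and among the annexins ANXA5 (0.34), ANXA1 (0.34) and a second probe of ANXA11 (0.40). Of the other partners, EZR by both probes (-1.57 and -1.54), CACYBP by 2 probes (0.28 and 0.86), STUB1 (0.77), SYT1 (1.33) and ASIC1 (-0.76) differed, as did 4 probes of AHNAK (-1.22, -0.40, -0.36 and -0.33) whose brightest probe did not pass. Of the marker genes, EPCAM (-0.60), KRT19 (-1.16), CSF1R (-1.91) and COL1A1 (0.54) did.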

How the results depend on the processing

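The clone differences of S100A4 and S100A10 kept their direction and passed under all 15 alternatives tried. The log2 ratio of S100A14, for which the family was chosen and which is a description, lay between -3.75 and -3.63 in clone #3-1 and between -2.07 and -1.90 in clone #4-7. Counts of probes moved more: from 13354 (clone #3-1), 12703 (clone #4-7) and 9220 (difference) to 7759, 6700 and 4332 with a normexp offset of 0, to 6065, 5574 and 3351 with plain background subtraction, to 8773, 8326 and 5946 with the authors' log10 table, and to 22379, 21313 and 17397 when the threshold was 0.05 after Benjamini-Hochberg adjustment. The difference also gave 5793 with Feature Extraction's processed signals and 15011 with an intensity trend in the prior variance. Leaving out 1 array gave 7883 to 10759, 6435 to 11129 and 4997 to 5801. The members past the threshold in clone #4-7, 7 in the reported setting and a description too, were 4 with an offset of 0 or plain subtraction and 4 to 6 without 1 array. In the difference, the 4 members besides S100A14 became 2 with an offset of 0, plain subtraction, processed signals or the authors' table (5 and 3 if S100A14 is counted, which is no test of it), and 3 without any 1 array. With the replicate block the counts were 11310, 10602 and 7297 probes; the numbers only name the arrays (correlation of deviations -0.013 over 2 pairs), and the S100A11 difference lost its call. The causes were not tested. Without 1 array, a clone's lone array is assumed to vary like the other clone's. S100A8 and S100A9 have no value among probes well above background. The number of arrays limits the precision.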

Other observations

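The 5 genes whose 4 log2 ratios lay nearest to those of S100A4, chosen after its values were seen, were NR4A3, KRT23, DUSP1, NR4A1 and ATF3, at Euclidean distances between 1.02 and 1.13 over the 4 arrays. NR4A1 and NR4A3 are nuclear receptors of the immediate early response and DUSP1 is a phosphatase of MAP kinases. NR4A3 was at -0.23 in clone #3-1 and at -4.23 in clone #4-7, DUSP1 at 0.050 and -3.37, and KRT23 at 0.081 and -3.47. All 5 were well above background in both channels on the 4 arrays. These values are a description, with no test.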
